A study of Homo sapiens with 6 samples.

Results

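The metzincin proteases of the MMP, ADAM and ADAMTS families and their inhibitors were examined in SCC90 cells in which DeltaNp63 had been silenced. Members were all rows of the gene table whose Ensembl identifier belongs to a protein-coding gene named MMP, ADAM, ADAMTS or ADAMTSL with a number, together with TIMP1, TIMP2, TIMP3, TIMP4 and RECK. The rule gave 72 of the 40488 genes in the table, of which 23 were MMPs, 20 ADAMs, 19 ADAMTSs, 5 ADAMTS-like genes (ADAMTSL) and 5 inhibitors. MMP24OS, which is named after the strand opposite to MMP24 and is not a protease, was left out.

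SCC90 is an HPV-positive squamous cell carcinoma line of the base of the tongue. The cells were transfected with 10 nM of an siRNA against DeltaNp63 (siDNp63, 3 libraries) or of a scrambled siRNA (siCTRL, 3 libraries), and poly(A) RNA was sequenced 72 h later. This dose is that of the sample labels, and the methods of the study give a different one. All libraries come from the same line, siCTRL cells were also transfected, and the labels of the groups differ by the siRNA only. Batches of culture, RNA extraction or library preparation are not given, and a difference in handling between groups cannot be told apart from the siRNA. Whether the 3 replicates of a group were separate cultures is not stated in the sources used here, and the p-values then measure only the spread between these libraries.

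MMPs are zinc-dependent endopeptidases that cleave collagens, laminins, growth factors and other proteases, either as secreted enzymes or from the cell surface. ADAMs sit in the plasma membrane, where those with an active site cut off the extracellular part of neighbouring proteins such as Notch, cadherins and EGF receptor ligands, while others lack the active site and act in adhesion. ADAMTS enzymes are secreted and include the main proteases of versican and aggrecan, and TIMPs and the membrane-anchored RECK block the catalytic sites of many of these enzymes.

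The libraries held between 35716277 and 52598831 estimated counts. TP63, the targeted gene, had 15520, 14474 and 15414 normalised counts in siDNp63 cells, against 42319, 44204 and 43700 in siCTRL cells, a log2 fold change of -1.52 (SE 0.04), where the gene count sums the DeltaN and TA transcripts. The epithelial markers KRT6A, EPCAM, CDH1, SFN and KRT17 reached 3814, 637, 744, 464 and 152 TPM (transcript counts corrected for length and depth), and KRT5 and KRT14 stayed at or below 8.24 and 1.59 TPM. Summed over 9 fibroblast markers the level was 5.99 to 9.18 TPM in siDNp63 cells and 8.86 to 10.9 TPM in siCTRL cells, with PDGFRB and FAP at 0 in every library. Summed over 8 leukocyte markers it was 11.8 to 12.6 TPM in siDNp63 cells and 14.8 to 16.3 TPM in siCTRL cells, with MS4A1 at 0 and PTPRC at or below 0.372 TPM. Summed over 6 endothelial markers it was 11.2 to 13.8 TPM in siDNp63 cells and 2.62 to 3.09 TPM in siCTRL cells, of which KDR made up to 8.93 TPM and PECAM1 up to 3.72 TPM, while CDH5 stayed at or below 0.112 TPM. The part of these markers in the results below was not tested, and in bulk RNA fewer cells that express a gene and less RNA per cell cannot be told apart.

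In siDNp63 cells the inhibitor TIMP2 rose 2.45-fold while TIMP1 fell to 0.536 of its siCTRL level. The membrane collagenase MMP14 and the secreted MMP2 and MMP10 fell, the sheddases ADAM9, ADAM12, ADAM15, ADAM17 and ADAM28 rose together with the matrix proteases ADAMTS1, ADAMTS5, ADAMTS15 and ADAMTS17, and ADAM19, ADAM22, ADAM23 and ADAMTS19 fell. RECK rose by 0.26 on the log2 scale. Of the 33 members with enough counts to be tested, 11 were higher and 8 were lower at an adjusted p under 0.05 by the quasi-likelihood test of edgeR (p-values adjusted by Benjamini-Hochberg over 17257 genes), while 14 did not pass. Over all genes tested, 18.4% were higher and 15.2% were lower, 33.6% in either direction. Most of the changes were small. With the further condition of an absolute log2 fold change over 1, only TIMP2 and ADAMTS15 were higher and no member was lower (0 also at an unadjusted p under 0.05 in edgeR, and 0 in DESeq2), where 2.35% of all genes were higher and 1.71% lower past both thresholds. ADAMTS15 passed the count filter only through its siDNp63 libraries, so it could be tested only as a higher gene. With at least 10 counts asked in every library, which left ADAMTS15 out, 10 members were higher and 1 was higher past both thresholds. Normalised counts of siDNp63 and siCTRL libraries were separate for 20 of the 33 tested members, against 49.4% of all genes tested.

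**Figure D1:**
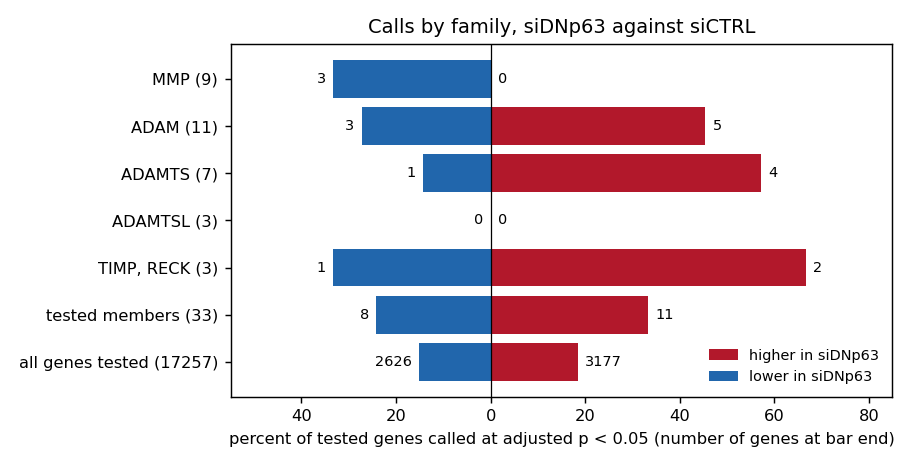
Share of tested genes (horizontal axis, percent) called higher (right, red) or lower (left, blue) in siDNp63 cells at an adjusted p under 0.05, for each family, for the 33 tested members and for all 17257 genes. The number tested stands beside each row's name and the number called at each bar's end. No MMP is higher and 3 of 9 are lower, while 5 of 11 ADAMs and 4 of 7 ADAMTSs are higher. The higher ADAMTSs include ADAMTS15, which passed the count filter only through its siDNp63 libraries.

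**Figure D2:**
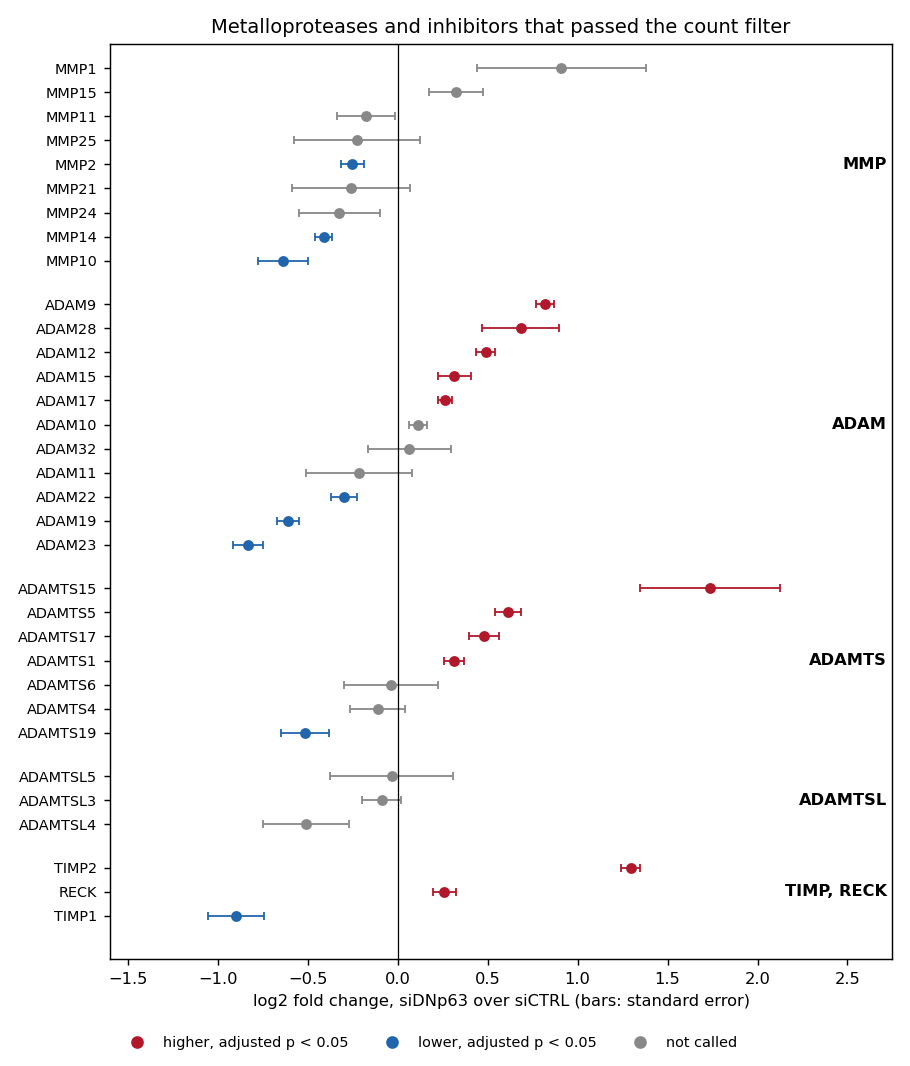
Log2 fold change (siDNp63 over siCTRL, horizontal axis) of each of the 33 tested members, ordered by family. Points are edgeR estimates and whiskers their standard errors, and red, blue and grey mark members called higher, lower or not called. TIMP2 and ADAMTS15 lie furthest to the right and TIMP1 furthest to the left.

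Among the inhibitors, TIMP2, which blocks most MMPs and also serves as the bridge by which MMP14 binds and activates proMMP2, had 1988, 2054 and 1948 normalised counts in siDNp63 cells, against 829, 833 and 777 in siCTRL cells. Every siDNp63 library was far above every siCTRL library, with little spread within either group. The log2 fold change was 1.30 (SE 0.05, edgeR adjusted p = 3.20e-06). TIMP1, an inhibitor of most secreted MMPs and of ADAM10, had 163, 246 and 225 normalised counts in siDNp63 cells, against 387, 431 and 369 in siCTRL cells. All siDNp63 libraries were below all siCTRL libraries, with siDNp63 replicate 1 the lowest. Its log2 fold change was -0.90 (SE 0.15, edgeR adjusted p = 0.00311), or -0.75 without siDNp63 replicate 1.

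RECK, a membrane-anchored glycoprotein that restrains MMP14, MMP2 and MMP9, had 973, 875 and 912 normalised counts in siDNp63 cells, against 791, 761 and 749 in siCTRL cells. The groups did not overlap in counts, with a log2 fold change of 0.26 (SE 0.06, edgeR adjusted p = 0.0159), but they did overlap in TPM, at 9.22, 8.07 and 8.50 TPM in siDNp63 cells and 8.76, 8.10 and 8.25 TPM in siCTRL cells. The call of RECK was lost in 6 of 14 other settings: without siCTRL replicate 2 or siCTRL replicate 3, with library size scaling, with transcript length offsets and in limma on TPM with either pseudocount, where its log2 fold change was 0.03 and 0.04 (limma adjusted p = 0.816 and 0.811). TIMP3, the TIMP that binds to the matrix and inhibits ADAM17, and TIMP4 were at or below 2 counts in every library and were not tested.

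On the TPM scale, which corrects for transcript length and allows levels of different genes to be set side by side, TIMP2 was at 20.9, 21.3 and 20.9 TPM in siDNp63 cells, against 9.30, 9.27 and 8.58 TPM in siCTRL cells. TIMP1 was at 11.4, 20.6 and 15.1 TPM in siDNp63 cells, against 44.7, 38.2 and 34.5 TPM in siCTRL cells. On this scale the order of the 2 inhibitors was turned round, though only narrowly in siDNp63 replicate 2. The ratio of TIMP2 to TIMP1 TPM was 1.84, 1.03 and 1.39 in siDNp63 cells, against 0.208, 0.242 and 0.249 in siCTRL cells. This ratio rests on the estimated transcript length of TIMP1. That length was on average longer in siDNp63 cells, by 0.36 on the log2 scale, but overlapped between groups. Summed over the 5 inhibitors, the level was 45.3 ± 4.29 TPM in siDNp63 cells and 56.6 ± 5.78 TPM in siCTRL cells (SD, n = 3 each). TIMP1 made up 27.4% to 41.3% of that sum in siDNp63 cells and 67.2% to 71.2% in siCTRL cells. The sums and ratios were not tested: 3 libraries against 3 cannot give an exact two-sided permutation p below 0.10.

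**Figure D3:**
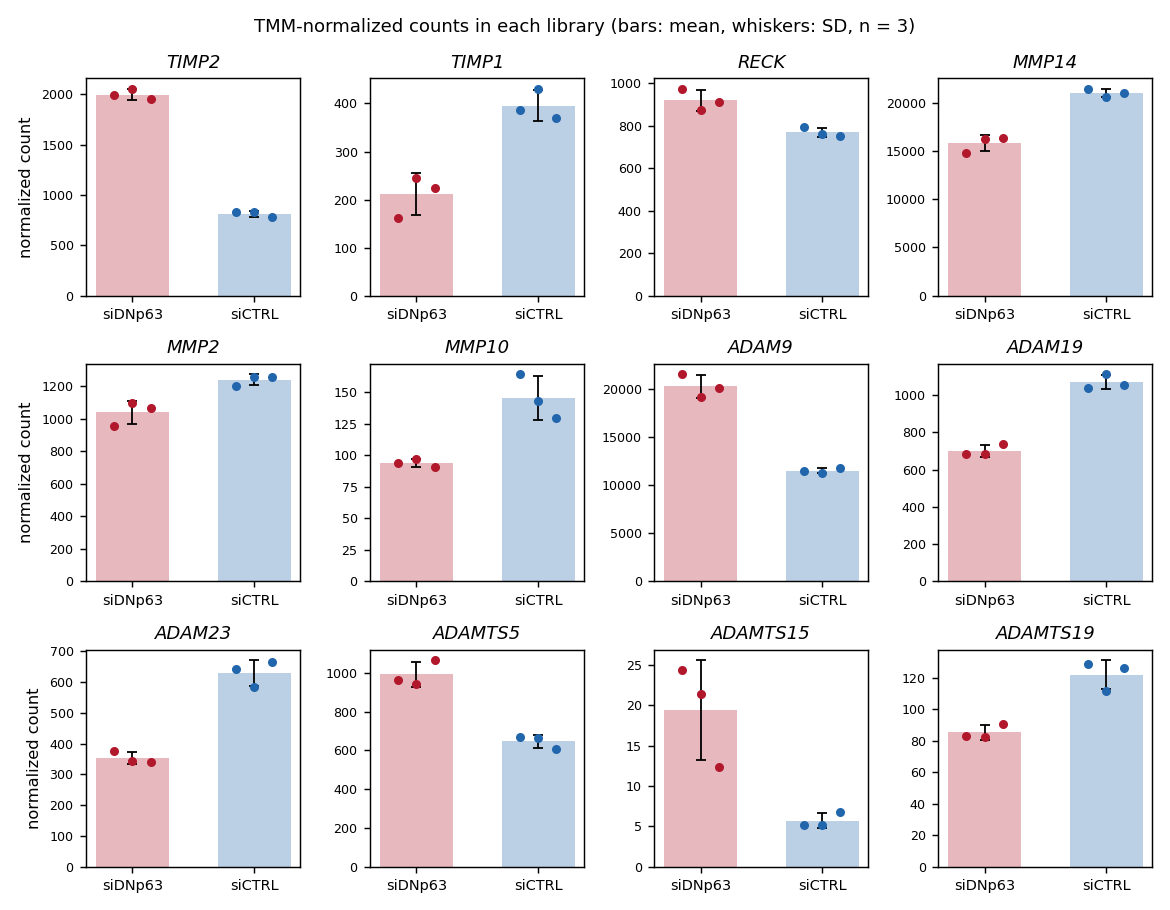
Normalised counts of 12 members in each library (points, siDNp63 left, siCTRL right, vertical axes starting at 0), with the group mean as a bar and the SD as whiskers (n = 3 each). TIMP2, RECK, ADAM9, ADAMTS5 and ADAMTS15 lie higher and TIMP1, MMP14, MMP2, MMP10, ADAM19, ADAM23 and ADAMTS19 lower in siDNp63 cells, with no overlap between groups in any panel.

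Of the 23 MMPs, 9 were tested. None was higher in edgeR (0 also at an unadjusted p under 0.05, and 0 in DESeq2), 3 were lower and 6 did not pass. The share called was 33.3% for the tested MMPs and 33.6% for all genes tested (18.4% higher, 15.2% lower). The median log2 fold change of the tested MMPs was -0.25, where the median of all genes tested was -0.02. MMP14 alone made up 79.3% to 81.4% of the summed MMP level in siDNp63 cells and 81.4% to 84.3% in siCTRL cells. That sum was 207 ± 17.8 TPM in siDNp63 cells and 284 ± 6.12 TPM in siCTRL cells (SD, n = 3 each).

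MMP14, a membrane-anchored collagenase, had 14826, 16213 and 16350 normalised counts in siDNp63 cells, against 21458, 20582 and 21005 in siCTRL cells. The siDNp63 libraries were all below the siCTRL libraries, and the log2 fold change was -0.41 (SE 0.05, edgeR adjusted p = 3.77e-04). In TPM the values were 152, 170 and 178 in siDNp63 cells and 240, 229 and 235 in siCTRL cells, so that the ratio of MMP14 to TIMP2 TPM was 7.27, 8.01 and 8.51 in siDNp63 cells, against 25.8, 24.8 and 27.4 in siCTRL cells. MMP14 messenger RNA stayed several times more abundant than that of TIMP2 in both groups.

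MMP2, the gelatinase that MMP14 activates, had 957, 1096 and 1065 normalised counts in siDNp63 cells, against 1201, 1260 and 1259 in siCTRL cells. The log2 fold change was -0.25 (SE 0.06, edgeR adjusted p = 0.0183). The TPM values overlapped, at 19.1, 21.2 and 18.5 TPM in siDNp63 cells and 18.8, 22.5 and 29.4 TPM in siCTRL cells, and the call was lost without siCTRL replicate 2 and without siCTRL replicate 3. MMP10, a stromelysin that cleaves proteoglycans and activates other proMMPs, had 93.4, 96.7 and 90.6 normalised counts in siDNp63 cells, against 164, 142 and 130 in siCTRL cells. It was low in both groups and lower in every siDNp63 library, with a log2 fold change of -0.64 (SE 0.14, edgeR adjusted p = 0.00911).

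MMP11, a stromelysin that is activated inside the cell by furin, was the third MMP by level and had 406, 668 and 561 normalised counts in siDNp63 cells, against 639, 620 and 593 in siCTRL cells. The groups overlapped, with siDNp63 replicate 1 lowest, and the log2 fold change of -0.17 (SE 0.16) did not pass. MMP15, a membrane-anchored relative of MMP14, had 538, 803 and 796 normalised counts in siDNp63 cells, against 558, 603 and 550 in siCTRL cells. Here too siDNp63 replicate 1 stood below the other siDNp63 libraries: the log2 fold change was 0.33 (SE 0.15, edgeR adjusted p = 0.135) with it and 0.49 (edgeR adjusted p = 9.40e-04) without it. The remaining tested MMPs were the collagenase MMP1 (log2 fold change 0.91, SE 0.47), MMP21 (-0.26, SE 0.33) and the membrane-anchored MMP24 (-0.32, SE 0.23) and MMP25 (-0.23, SE 0.35), each under 1 TPM and none past the test.

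Of the 9 MMP genes that lie next to each other on the long arm of chromosome 11 (MMP7, MMP20, MMP27, MMP8, MMP10, MMP1, MMP3, MMP12 and MMP13), only MMP10 and MMP1 had enough counts to be tested. The others had at most 7.01 counts in any library. MMP9, a gelatinase encoded on another chromosome, had at most 10 counts in any library, so that these MMPs were near the limit of detection in both groups.

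Promoters were read as RefSeq gives them for GRCh38.p14, in windows of 300 bases (250 before to 50 after the annotated start), and searched on both strands for the GC box GGGCGG bound by SP family factors, the AP-1 motif TGANTCA and the p53 family motif. The last was searched as the exact string RRRCWWGYYY, where R is A or G, W is A or T and Y is C or T. The windows of 4 members that were lower in siDNp63 cells are shown, 3 as examples of the GC box and MMP10 as the only tested member with the AP-1 motif. None of them holds the p53 family motif, and windows of higher members are not shown. Capitals mark GC boxes in TIMP1 (chrX:47582186-47582485, plus strand), MMP14 (chr14:22836335-22836634, plus strand) and ADAM23 (chr2:206443282-206443581, plus strand), and the AP-1 motif in MMP10 (chr11:102780579-102780878, minus strand). Each is written in the direction of transcription, and no marked matches overlap.
TIMP1: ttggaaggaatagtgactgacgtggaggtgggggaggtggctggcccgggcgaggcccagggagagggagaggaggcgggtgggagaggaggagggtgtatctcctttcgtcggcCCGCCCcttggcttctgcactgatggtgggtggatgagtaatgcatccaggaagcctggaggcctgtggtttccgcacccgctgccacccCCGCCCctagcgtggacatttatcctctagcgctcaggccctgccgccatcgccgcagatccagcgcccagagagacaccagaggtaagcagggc
MMP14: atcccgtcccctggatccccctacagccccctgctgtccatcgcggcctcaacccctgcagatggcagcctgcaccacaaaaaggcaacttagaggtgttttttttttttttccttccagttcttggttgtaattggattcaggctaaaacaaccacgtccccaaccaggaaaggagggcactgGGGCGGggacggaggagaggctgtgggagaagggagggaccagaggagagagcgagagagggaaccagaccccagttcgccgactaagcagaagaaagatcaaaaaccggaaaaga
ADAM23: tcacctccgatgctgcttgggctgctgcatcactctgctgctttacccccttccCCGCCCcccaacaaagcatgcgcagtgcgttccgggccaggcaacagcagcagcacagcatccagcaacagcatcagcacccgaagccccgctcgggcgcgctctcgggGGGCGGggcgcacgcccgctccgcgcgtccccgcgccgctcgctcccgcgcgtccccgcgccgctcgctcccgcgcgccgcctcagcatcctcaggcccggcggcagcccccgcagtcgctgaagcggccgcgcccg
MMP10: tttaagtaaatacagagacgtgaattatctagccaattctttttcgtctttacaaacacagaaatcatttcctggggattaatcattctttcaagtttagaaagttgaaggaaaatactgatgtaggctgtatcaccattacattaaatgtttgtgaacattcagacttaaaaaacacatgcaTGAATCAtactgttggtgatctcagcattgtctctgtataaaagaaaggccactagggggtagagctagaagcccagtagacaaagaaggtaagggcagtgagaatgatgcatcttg
The window of the low-level MMP10 differs from the other 3 in having an AP-1 match and no GC box. RefSeq windows were matched to 45 of the 72 members, 21 of them tested. A GC box was found in 45.0% of all 35116 promoters and in 31 of the 45 members. Among the 21 tested members it was found in 17, namely in 5 of 5 higher, 5 of 7 lower and 7 of 9 uncalled members. The AP-1 motif was found in 7.71% of all promoters and in 4 of the 45 members (ADAMTS12, MMP10, MMP20 and MMP7), of which only MMP10 was tested. The p53 family motif was found in 6.63% of all promoters and in 0 of the 45 members. Sites that depart from the exact string searched were not counted. These matches describe the letters in the windows and were not tested for binding.

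Of the 20 ADAMs, 11 were tested, of which 5 were higher, 3 lower and 3 not called. The shares for all genes tested were 18.4% higher and 15.2% lower. The ADAMs were also grouped by whether the protein keeps the active site, a grouping made after the values were seen. Of the 7 tested catalytic ADAMs, 5 were higher and 1 was lower (median log2 fold change 0.32). Of the 4 tested ADAMs without an active site, 0 were higher and 2 were lower (median -0.26). Among the 5 higher, ADAM15 and ADAM28 lost the call in 8 and 9 of 14 other settings. The summed ADAM level was 917 ± 65.3 TPM in siDNp63 cells and 794 ± 27.7 TPM in siCTRL cells (SD, n = 3 each).

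ADAM10, the main sheddase of Notch receptors and E-cadherin, was the most abundant member of all and made up 52.5% to 55.2% of the ADAM level in siDNp63 cells and 59.2% to 61.7% in siCTRL cells. It was at 515, 444 and 527 TPM in siDNp63 cells, against 460, 464 and 509 TPM in siCTRL cells. The groups overlapped, and the log2 fold change of 0.11 (SE 0.05, edgeR adjusted p = 0.134) did not pass, although it did so without siDNp63 replicate 2 (adjusted p = 0.0422). ADAM9, a sheddase linked to EGF receptor ligands, had 21507, 19136 and 20126 normalised counts in siDNp63 cells, against 11454, 11239 and 11773 in siCTRL cells. All siDNp63 libraries lay well above all siCTRL libraries, with a log2 fold change of 0.82 (SE 0.05, edgeR adjusted p = 1.54e-05). Its level was 198, 174 and 189 TPM in siDNp63 cells and 111, 109 and 113 TPM in siCTRL cells, so that ADAM9 carried the larger part of the rise in the summed ADAM level.

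ADAM15, which has roles in adhesion and shedding, had 5606, 7228 and 7158 normalised counts in siDNp63 cells, against 5254, 5418 and 5410 in siCTRL cells. The groups were separate but siDNp63 replicate 1 lay close to the siCTRL libraries, and the log2 fold change of 0.32 (SE 0.09, edgeR adjusted p = 0.0310) did not pass when any library other than siDNp63 replicate 1 was left out. ADAM17, the enzyme that releases TNF and many EGF receptor ligands, was higher by 0.27 (SE 0.04, edgeR adjusted p = 0.00142) on the log2 scale, and ADAM12, which cleaves HBEGF and IGF-binding proteins, by 0.49 (SE 0.05, edgeR adjusted p = 2.89e-04). The call of ADAM12 was lost in limma on TPM (log2 fold change 0.24 and 0.26, limma adjusted p = 0.246 and 0.237) and with transcript length offsets (0.31, edgeR adjusted p = 0.104). ADAM28 had 69.1, 49.6 and 56.3 normalised counts in siDNp63 cells, against 38.2, 39.5 and 30.4 in siCTRL cells. It was low in both groups and higher in each siDNp63 library, with a log2 fold change of 0.68 (SE 0.21, edgeR adjusted p = 0.0408), a call that did not hold in 9 of 14 other settings, among them DESeq2 (adjusted p = 0.108) and each single-library omission except that of siDNp63 replicate 2. Without siDNp63 replicate 3, or without any 1 siCTRL library, 3 ADAMs were higher in place of 5.

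ADAM19, a sheddase of neuregulins, had 682.1, 682.2 and 735 normalised counts in siDNp63 cells, against 1040, 1112 and 1054 in siCTRL cells. It was the only tested catalytic ADAM that fell, with a log2 fold change of -0.61 (SE 0.06, edgeR adjusted p = 2.17e-04) and no overlap between groups. ADAM23, which lacks the active site and binds LGI proteins and integrins, had 376, 345 and 340 normalised counts in siDNp63 cells, against 641, 583 and 665 in siCTRL cells. This was the largest fall among the ADAMs, with a log2 fold change of -0.83 (SE 0.08, edgeR adjusted p = 2.26e-04). ADAM22, another LGI receptor without an active site, fell by 0.30 on the log2 scale (SE 0.07, edgeR adjusted p = 0.0134), whereas ADAM11 (-0.21, SE 0.30) and ADAM32 (0.07, SE 0.23), also without a full active site, did not pass.

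Of the 19 ADAMTS genes, 7 were tested, of which 4 were higher, 1 lower and 2 not called, where 18.4% of all genes tested were higher and 15.2% lower. With at least 10 counts asked in every library, which left ADAMTS15 out, 3 were higher. The summed level of the 19 ADAMTS genes was 27.5 ± 0.996 TPM in siDNp63 cells and 23.8 ± 0.400 TPM in siCTRL cells (SD, n = 3 each). The 4 tested ADAMTS enzymes that cleave versican and aggrecan were again grouped after the values were seen. Of these, ADAMTS1, ADAMTS5 and ADAMTS15 were higher and ADAMTS4 was not called (log2 fold change -0.11, SE 0.15). ADAMTS15 could be tested only as a higher gene, since only its siDNp63 libraries brought it past the count filter. ADAMTS1, the most abundant of the family, had 1799, 1676 and 1587 normalised counts in siDNp63 cells, against 1360, 1347 and 1366 in siCTRL cells, and its log2 fold change was 0.31 (SE 0.06, edgeR adjusted p = 0.00369). ADAMTS5 had 965, 944 and 1067 normalised counts in siDNp63 cells, against 668, 666 and 609 in siCTRL cells. Both genes were higher in every siDNp63 library, ADAMTS5 by 0.61 on the log2 scale (SE 0.07, edgeR adjusted p = 5.17e-04).

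ADAMTS15 had the largest fold change of all tested members but was one of the least abundant, with 24.3, 21.4 and 12.4 normalised counts in siDNp63 cells, against 5.21, 5.20 and 6.76 in siCTRL cells. The groups did not overlap, and the log2 fold change was 1.74 (SE 0.39, edgeR adjusted p = 0.0105), with a level that did not exceed 0.147 TPM in any library. It was tested only because the siDNp63 libraries brought it past the count filter. ADAMTS17, which acts in fibrillin-rich matrix, had 476, 466 and 478 normalised counts in siDNp63 cells, against 326, 367 and 324 in siCTRL cells, a log2 fold change of 0.48 (SE 0.08, edgeR adjusted p = 0.00318). ADAMTS19 had 83.2, 82.2 and 90.6 normalised counts in siDNp63 cells, against 128, 111 and 126 in siCTRL cells. It was the only ADAMTS that fell, by 0.51 on the log2 scale (SE 0.13, edgeR adjusted p = 0.0201), and this call was lost in edgeR without siDNp63 replicate 2, siCTRL replicate 1 or siCTRL replicate 3 (adjusted p from 0.0590 to 0.0746) and in DESeq2 (adjusted p = 0.0591). ADAMTS6 did not pass (-0.04, SE 0.26).

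**Figure D4:**
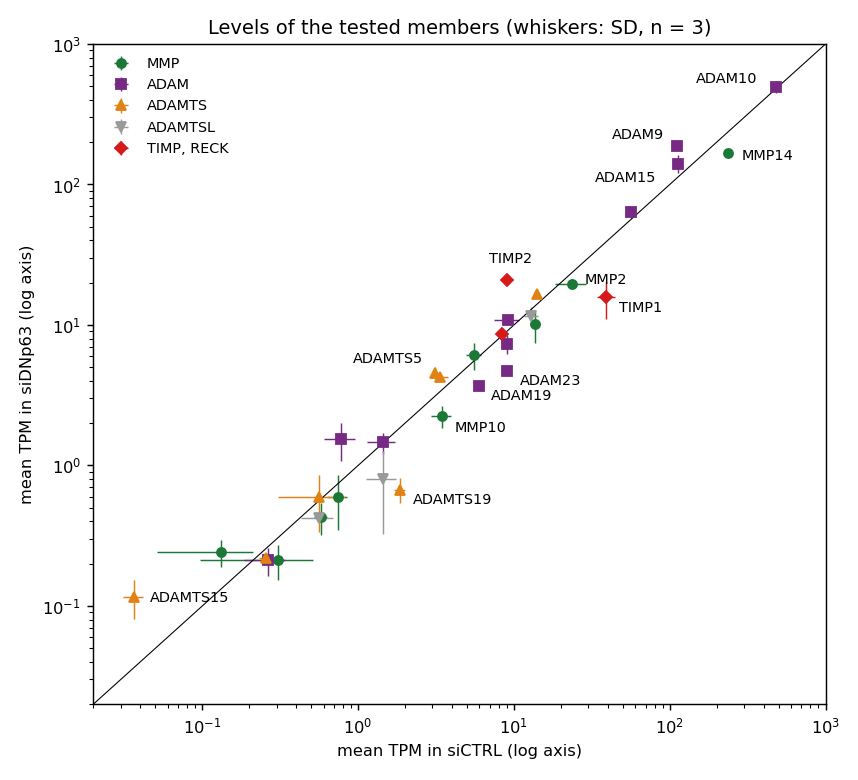
Mean TPM of the 33 tested members in siDNp63 cells (vertical) and siCTRL cells (horizontal), both on log axes, with SD whiskers (n = 3 each) and the line of equal levels. ADAM10, MMP14, ADAM9 and ADAM15 are the most abundant members, TIMP2 and ADAMTS15 lie above the line and TIMP1, ADAM23, ADAM19 and ADAMTS19 below it.

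The average length of the transcripts to which reads were assigned was read from the ratio of count to TPM of a gene. Taken relative to the median gene of its library, this length differed on average between groups for a few members. For ADAMTS19 it was 1.82, 2.50 and 2.70 in siDNp63 cells, against 1.21, 1.23 and 1.25 in siCTRL cells, without overlap. With these lengths as offsets, a setting chosen after the data were seen, ADAMTS19 fell by 1.42 on the log2 scale (edgeR adjusted p = 0.00142). TIMP1 had relative lengths of 0.259, 0.211 and 0.271 in siDNp63 cells, against 0.164, 0.212 and 0.199 in siCTRL cells, which overlapped, and fell by 1.25 with the offsets (edgeR adjusted p = 0.00570). ADAMTSL5 had relative lengths of 1.36, 0.717 and 1.03 in siDNp63 cells, against 0.522, 0.546 and 0.573 in siCTRL cells. ADAMTSL5 had at most 57.3 counts in any library. Whether the gene-level counts of these members add up transcripts of different length in different proportions was not tested on single transcripts.

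The 3 tested ADAMTSL genes, which encode matrix proteins without a protease domain, gave no call in edgeR (0 also at an unadjusted p under 0.05, and 0 in DESeq2). ADAMTSL3 had 910, 699 and 777 normalised counts in siDNp63 cells, against 931, 802 and 798 in siCTRL cells. ADAMTSL5 had 20.5, 47.9 and 52.5 in siDNp63 cells and 49.5, 37.4 and 38.3 in siCTRL cells, with siDNp63 replicate 1 again the lowest. ADAMTSL4 had 26.9, 29.1 and 33.4 in siDNp63 cells and 40.8, 34.3 and 52.9 in siCTRL cells, without overlap, and its log2 fold change of -0.51 (SE 0.24) did not pass (edgeR adjusted p = 0.142).

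Of the 72 members, 39 had too few counts to be tested. ADAM2, ADAM18, ADAM30, ADAMTS12 and MMP8 had no count in any library. The 28 members ADAM7, ADAM8, ADAM20, ADAM21, ADAM33, ADAMTS2, ADAMTS3, ADAMTS7, ADAMTS8, ADAMTS9, ADAMTS10, ADAMTS14, ADAMTS18, ADAMTS20, ADAMTSL1, MMP3, MMP7, MMP12, MMP13, MMP16, MMP19, MMP20, MMP23B, MMP26, MMP27, MMP28, TIMP3 and TIMP4 had counts that stayed under 10 in every library. ADAM29, ADAMTS13, ADAMTS16, ADAMTSL2, MMP9 and MMP17 reached 10 counts in at least 1 library. ADAMTS13 and ADAMTS2 each had the same values as another Ensembl identifier of the table, so that their counts may be split between copies. No member with fewer counts than the filter asks for entered the counts of calls above.

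Other genes of the same pathways were described from lists, each by its counts and its largest called changes. Over all genes tested, 18.4% were higher and 15.2% were lower, and the lists were not tested as sets. Of 6 tested proprotein convertases, which remove the prodomain of MMPs and ADAMs, PCSK5 was higher (log2 fold change 0.40) and PCSK1 (-0.60), PCSK2 (-0.39) and PCSK7 (-0.22) were lower, while FURIN did not pass (-0.19, SE 0.14). Of 9 tested partners of ADAM10 and ADAM17, 3 were higher and 1 was lower. TSPAN5, a tetraspanin that escorts ADAM10, averaged 2660 ± 113 normalised counts in siDNp63 cells and 1396 ± 59.7 in siCTRL cells, and TSPAN15, another such tetraspanin, was higher by 0.42 on the log2 scale. RHBDF1, an inactive rhomboid needed for ADAM17 maturation, averaged 782 ± 81.1 normalised counts in siDNp63 cells and 456 ± 32.3 in siCTRL cells, while FRMD8, which stabilises the complex of inactive rhomboid and ADAM17, fell by 0.33. The other 5 tested partners did not pass.

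In the plasminogen activation system, whose product plasmin activates several proMMPs, 3 of 11 tested genes were higher and 4 lower. The shares over all genes tested were 18.4% and 15.2%, here and for the MMP regulators below. PLAT, tissue plasminogen activator, fell by 0.77 on the log2 scale. SERPINB2, a plasminogen activator inhibitor, rose by 1.19, and S100A10, a cell surface receptor for plasminogen, averaged 14749 ± 888 normalised counts in siDNp63 cells and 7595 ± 435 in siCTRL cells. Of 13 other tested regulators of MMP activity, 7 were higher and 1 was lower. Those with the largest changes were THBS2 (log2 fold change 3.68), SPOCK3 (2.46), TFPI2 (1.62) and CLDN1 (1.11). Of these, THBS2, SPOCK3 and TFPI2 averaged under 10 normalised counts in siCTRL cells. They passed the count filter only through their siDNp63 libraries, so they could be tested only as higher genes, and they are among the 7.

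Of 30 tested cell surface proteins that ADAMs shed, 11 were higher and 6 lower. For this list and those of matrix substrates and other proteases, the shares over all genes tested were again 18.4% higher and 15.2% lower. IL6R, which ADAM10 and ADAM17 release, averaged 119 ± 15.9 normalised counts in siDNp63 cells and 338 ± 18.3 in siCTRL cells, COL17A1 (log2 fold change -1.33) was also lower, and ERBB4 (1.45) was higher. ERBB4 was low, with 15.4, 32.5 and 37.2 normalised counts in siDNp63 cells, against 15.6, 8.32 and 6.76 in siCTRL cells. Its groups overlapped in counts and in TPM, and its highest TPM (0.397) was that of siCTRL replicate 1. Of 20 tested matrix substrates of MMPs and ADAMTSs, 6 were higher and 5 lower. VCAN, the proteoglycan versican that ADAMTS1, ADAMTS5 and ADAMTS15 cleave, averaged 802 ± 33.4 normalised counts in siDNp63 cells and 342 ± 16.3 in siCTRL cells, while TNC (-1.64), the anchoring fibril collagen COL7A1 (-1.38) and DCN (-1.32) fell. Of 21 other tested extracellular proteases, 6 were higher and 3 lower, the largest called changes being those of the serine protease TMPRSS11D (on average 203 normalised counts in siDNp63 cells and 71.9 in siCTRL cells), the IGF-binding protein protease PAPPA2 (log2 fold change 1.24), the lysosomal cathepsin CTSV (0.76) and the neutral endopeptidase MME (0.74). PAPPA2 was at 0.0643 TPM in siDNp63 cells and 0.105 TPM in siCTRL cells on average, the opposite order to its counts. It passed the count filter only through its siDNp63 libraries, so it could be tested only as a higher gene.

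All 19 called members kept their direction in all 14 other settings that could fit them, and 7 (ADAM9, ADAM19, ADAM23, ADAMTS5, MMP14, TIMP1 and TIMP2) also kept the call in each. In limma on TPM the calls of ADAM12, ADAM15, ADAM17, ADAM22, ADAMTS1, ADAMTS15, ADAMTS17, MMP2, MMP10 and RECK were lost with both pseudocounts, and those of ADAM12, ADAM22, MMP2, MMP10 and RECK also with transcript length offsets.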

How the data were processed

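The 6 libraries of SCC90 cells were analysed here. The authors sequenced stranded poly(A) libraries, made base calls with bcl2fastq 2.17.1.14 and quantified single-end reads with kallisto 0.46.2 at default options on hg38. Which annotation release they used is not stated there. The deposited table holds estimated counts (expected counts) and TPM per Ensembl gene, which the authors summed over transcripts. No strand option is stated, so reads from exons shared with a gene on the opposite strand cannot be told apart. In MMP25, MMP24, ADAMTSL4, ADAM17 and TIMP2 the gene with the largest overlap lay on the opposite strand. It covered 30.6%, 18.4%, 11.4%, 10.3% and 5.91% of their exonic bases, in that order. Overlap with other genes on either strand came to 30.6%, 22.1%, 14.4%, 11.7% and 9.52%. In the untested MMP9 an opposite-strand gene covered 18.4%.

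Estimated counts were rounded, filtered with filterByExpr (minimum count 10), scaled by TMM and tested for group with edgeR 4.0.16 (quasi-likelihood, R 4.3.3) over 17257 genes, with Benjamini-Hochberg adjustment. Normalised counts are counts scaled to the mean TMM-effective library size. Alternatives were DESeq2 1.42.0, limma 3.58.1 on log2(TPM + 1) and log2(TPM + 0.1), library size scaling, no filter, at least 10 counts in every library, a replicate block, omission of each library and, added after the data were seen, transcript length offsets. The scripts were tested on simulated data. All members were named, with values per library for members called with an absolute log2 fold change of at least 0.5, the inhibitors and the 3 highest by TPM per family, and the 4 largest called changes of each other list were named, except that some are not reported here. Members and lists were chosen with earlier results of these data known. Gene names came from GENCODE, with 35538 of 40488 identifiers matched.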

Additional observations from a re-analysis of the deposited data

How the results depend on the processing

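Replicate numbers did not pair the libraries: deviations of same-numbered libraries from their group means correlated at -0.008, 0.018 and 0.025, and 1 of 3 siDNp63 libraries correlated best with its own number. With the replicate block 2777 genes were higher and 2175 lower, against 3177 and 2626 without it, the count of lower ADAMTS genes was 0 in place of 1, and that of lower MMP regulators 2 in place of 1.

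On limma with log2(TPM + 1) and log2(TPM + 0.1), 4 and 4 members were higher (11 in edgeR), 5 and 5 lower (8), 1 and 1 higher past both thresholds (2) and 1 and 2 lower past both (0). In the same order of settings, 2 and 2 ADAMs, 1 and 1 ADAMTSs, 1 and 1 inhibitors and 0 and 0 convertases were higher, and 1 and 1 MMPs, 2 and 2 sheddase partners and 1 and 1 other proteases were lower. With length offsets 5 members, 1 MMP, 2 partners and 1 other protease were lower, 2 members were lower past both thresholds, and 1 inhibitor was higher. With library size scaling 3 ADAMs and 1 inhibitor were higher and 2 partners lower. DESeq2 gave 0 lower ADAMTSs, 2 lower partners and 2 lower MMP regulators. Without a filter 2 ADAMTSs were lower and 1 member was lower past both thresholds. The stricter filter, which left ADAMTS15 out, gave 1 member higher past both thresholds and 4 higher MMP regulators. The cause of the other differences was not tested.

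With each library left out in turn, the counts ranged from 0 to 1 for members lower past both thresholds, 0 to 1 for higher MMPs, 3 to 5 for higher ADAMs, 0 to 1 for lower ADAMTSs, 1 to 2 for higher inhibitors, 1 to 2 for lower partners, 2 to 4 for lower plasminogen genes, 1 to 2 for lower MMP regulators, and 1 to 3 for lower other proteases. The 29 results followed through the alternatives were counts of calls and the log2 fold change of TP63, with 406 values. Of these, 347 were unchanged. For a count this meant equal to the edgeR count (0 against 0 included) or within 1.5 times it, and for TP63 the same direction and call. Library size scaling moved the median of all genes to -0.11 on the log2 scale and the share of higher among called genes to 36.1%, and limma on TPM moved that share to 41.5% and 42.3%, against 54.7% in edgeR with TMM.

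For the 39 members with few counts no call was made, and whether greater depth would bring them past the filter was not tested. In TPM the groups overlapped for the called ADAM12, ADAM17, MMP2 and RECK. Library siDNp63 replicate 1 stood apart from the other siDNp63 libraries in a principal component analysis (second component 42.2, the others at -27.7 and -28.8) and was the shallowest.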

Other observations

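Of the 39 members below the count filter, 4 had groups that did not overlap, and they were chosen here after their values were seen. The 49.4% without overlap among all genes tested covers only genes past the filter. The share among genes below the filter was not computed. MMP9, gelatinase B, had 12.8, 4.28 and 7.63 normalised counts in siDNp63 cells, against 1.74, 3.12 and 2.25 in siCTRL cells, and in edgeR without a filter its log2 fold change was 1.72 (adjusted p = 0.107). ADAMTS13, the protease of von Willebrand factor, had 1.28, 2.57 and 2.86 normalised counts in siDNp63 cells, against 8.68, 12.5 and 6.76 in siCTRL cells, with a log2 fold change of -1.95 in edgeR without a filter (adjusted p = 0.0417). ADAMTS16 had 2.56, 5.14 and 4.77 normalised counts in siDNp63 cells, against 9.54, 8.32 and 12.4 in siCTRL cells, and in edgeR without a filter it did not pass (log2 fold change -1.21, adjusted p = 0.140). ADAMTSL2 had 7.68, 1.71 and 3.81 in siDNp63 cells, against 10.4, 8.32 and 18.0 in siCTRL cells, and did not pass in that fit either (log2 fold change -1.52, edgeR adjusted p = 0.118).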
